A study of Arabidopsis thaliana with 12 samples.

Results

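AT3G19120 and AT1G67930 are Arabidopsis thaliana genes whose transcripts were lower in cytokinin-treated than in water-treated cell culture. Both were chosen for that difference: the difference between the treatments, also within same-numbered pairs of arrays, picked them out, so their values in that contrast are a description. Where it is said which of them passed a threshold there, that tells how they were picked and supports nothing. A feature here is 1 position of the array with 1 intensity. Of 3439 features, 692 are annotated with exactly 1 gene, and each of the 2 genes lies on 1 such feature (feature 2409 for AT3G19120 and feature 3052 for AT1G67930). Neither gene occurs on a feature with several genes.

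Total RNA came from wild-type cell culture of the Columbia-0 ecotype, with 6 arrays of culture given water and 6 of culture given cytokinin for 2 h. Another label calls the control untreated, and the labels state no duration for the water. They also do not name the cytokinin, nor say whether the replicates numbered 1 to 6 in each group were separate cultures, so any p-value measures only the spread between these arrays, which may be technical. Array totals lay between 3743 and 3875 intensity units, and the number of arrays limits the precision. A cell culture has no defining marker genes that were set down for this work, so its identity was not checked.

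AT3G19120 is described in its annotation as transposase-derived and nuclease-like. A DNA transposase is an enzyme that cuts a mobile element out of the genome and inserts it elsewhere, and plant genomes keep some transposase-like genes at fixed positions, where the element around them is no longer mobile. AT1G67930 is described as a Golgi transport complex protein and stands on the list of conserved oligomeric Golgi (COG) complex loci used here. In yeast and mammals that complex tethers vesicles that return to and between Golgi cisternae, and so keeps glycosylation enzymes in place. In plants the Golgi apparatus builds the pectins and hemicelluloses of the cell wall. Cytokinin, which promotes cell division in plants, is read by histidine kinase receptors, which pass phosphate through phosphotransfer proteins to response regulators in the nucleus.

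AT3G19120, the transposase-derived gene, had normalized intensities of 1.83, 2.05, 1.52, 1.56, 1.79 and 1.93 on water arrays 1 to 6. On cytokinin arrays 1 to 6 they were 1.22, 1.22, 1.14, 1.09, 1.30 and 1.42. Every cytokinin array lay below every water array, and the lowest water value, in number 3, was 1.07 times the highest cytokinin value, in number 6. The mean was 1.78 ± 0.205 in water and 1.23 ± 0.117 in cytokinin (SD, n = 6 arrays per group), a log2 difference of -0.53 (SE 0.087) or an intensity 30.7% lower with cytokinin. Each SE printed in this way is limma's moderated SE from the fit without the replicate number. For AT3G19120 it was 0.049 with the replicate number in the fit. Values were scaled by quantile normalization and floored at 0.258, and log2 differences are cytokinin minus water throughout. The mean of AT3G19120 was 6.91 times that floor in water and 4.78 times in cytokinin, and no array reached it, so the floor did not enter its difference.

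AT1G67930, the Golgi transport complex gene, was dimmer. Its normalized intensities were 0.693, 0.667, 0.826, 0.849, 0.839 and 0.807 on water arrays 1 to 6. On cytokinin arrays 1 to 6 they were 0.485, 0.545, 0.658, 0.686, 0.621 and 0.633. Here the groups overlapped after normalization: cytokinin array 4 lay above water array 2, and no other cytokinin array lay above any water array. On the values as deposited they did not overlap, since the lowest water value was 1.04 times the highest cytokinin value. There, however, the median log2 intensity of all features was also lower on every cytokinin array (-0.57 to -0.53) than on every water array (-0.47 to -0.43). How many of all features did not overlap as deposited was not counted. The mean was 0.78 ± 0.0793 in water and 0.604 ± 0.0754 in cytokinin (SD, n = 6 per group), a log2 difference of -0.37 (SE 0.096), or 22.7% lower with cytokinin. With the replicate number in the fit the SE was 0.042. Its mean stood 3.03 times above the floor in water and 2.34 times in cytokinin, and no array was at the floor. Because RNA was taken from whole culture, fewer cells of a type and less RNA per cell cannot be told apart.

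**Figure D1:**
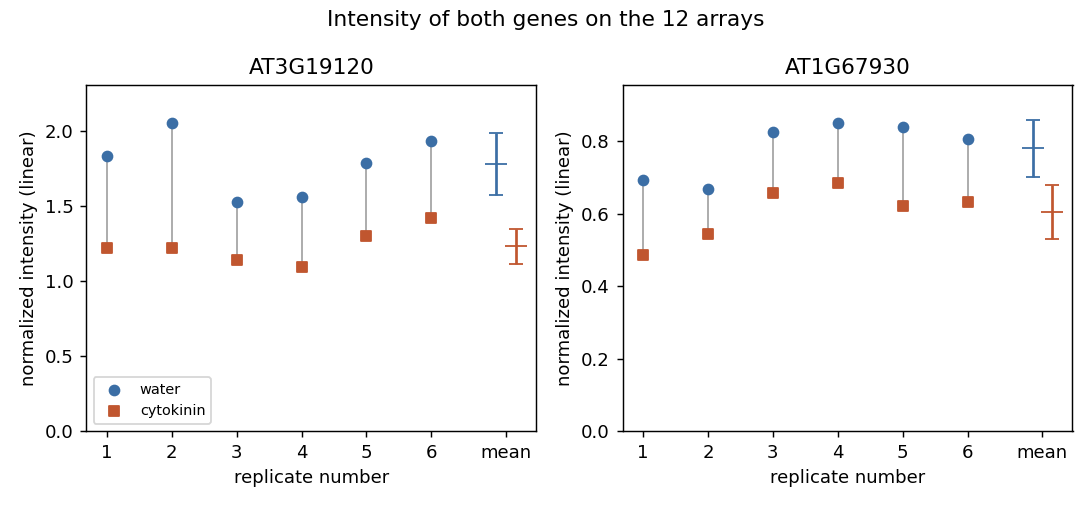
Normalized intensity (linear scale, from 0) of AT3G19120 and AT1G67930 on each array by replicate number, with circles for water, squares for cytokinin and a grey line between arrays of the same number; the last position gives the mean ± SD of 6 arrays. The cytokinin array is the lower one at every number in both panels, with means of 1.78 and 1.23 for AT3G19120 and of 0.78 and 0.604 for AT1G67930.

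Within same-numbered pairs, cytokinin was below water in 6 of 6 pairs for both genes. For AT3G19120 the log2 differences in pairs 1 to 6 were -0.59, -0.75, -0.42, -0.52, -0.46 and -0.44, with an SD of 0.122. The differences of pairs 1 and 2 lay farthest from 0. For AT1G67930 they were -0.52, -0.29, -0.33, -0.31, -0.43 and -0.35, with an SD of 0.0864. Pair 1 lay farthest from 0, and pair 2 lay nearest. Of the 3091 features tested, 249 (8.06%) were lower with cytokinin in all 6 pairs, and 21 (0.679%) had all cytokinin arrays below all water arrays after normalization. Both genes are among the first and AT3G19120 alone of the 2 is among the second, as the way they were chosen favours.

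**Figure D2:**
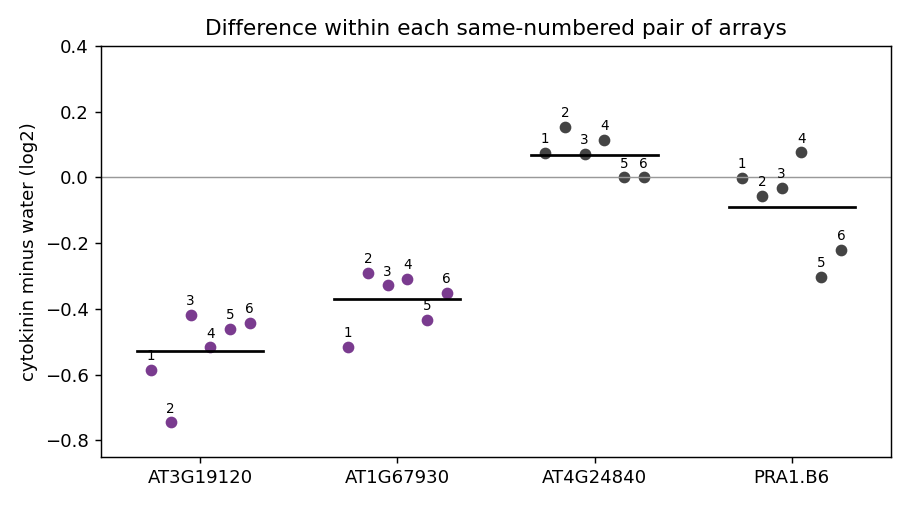
Log2 difference, cytokinin minus water, in each same-numbered pair of arrays (points, labelled with the replicate number) for AT3G19120, AT1G67930, AT4G24840 and PRA1.B6, with a line at the mean of 6 pairs. Points of AT3G19120 run from -0.75 to -0.42 and those of AT1G67930 from -0.52 to -0.29, while points of the other genes lie between -0.30 and 0.15. Both arrays of pairs 5 and 6 of AT4G24840 are at the floor, so their difference of 0 has no meaning as a measurement.

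The level of both genes also varied within each treatment, and not in the same arrays. In the water group AT3G19120 was lowest in numbers 3 and 4, at a mean of 1.54 against 1.94 in numbers 1 and 2 and 1.86 in numbers 5 and 6. In the cytokinin group it was again lowest in numbers 3 and 4, at 1.12, against 1.22 and 1.36. AT1G67930 was lowest in numbers 1 and 2 in both treatments. Its means there were 0.68 in water and 0.515 in cytokinin, against 0.837 and 0.672 in numbers 3 and 4 and 0.823 and 0.627 in numbers 5 and 6. The numbers that were low for one gene were thus not those that were low for the other.

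Whether the level depended on the replicate number was tested apart from the treatment, in limma's moderated F-test of the number terms with treatment in the fit, adjusted over all features tested. This comparison did not choose the genes, although its residual spread is shared with the fit that did. The choice also looked within pairs, which favours a small residual spread and so a larger F. The F and adjusted p of the 2 genes are therefore a description. AT1G67930 differed by number (F = 10.3, adjusted p = 0.00404 in limma), with 1 sign of deviation at both arrays of every number. AT3G19120 differed as well (F = 5.4, adjusted p = 0.0246), with 1 sign at both arrays of numbers 3 to 6. Such differences were common on these arrays: 1865 features, or 60.3%, passed, so the members' 2 of 2 is not a result about these genes.

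**Figure D3:**
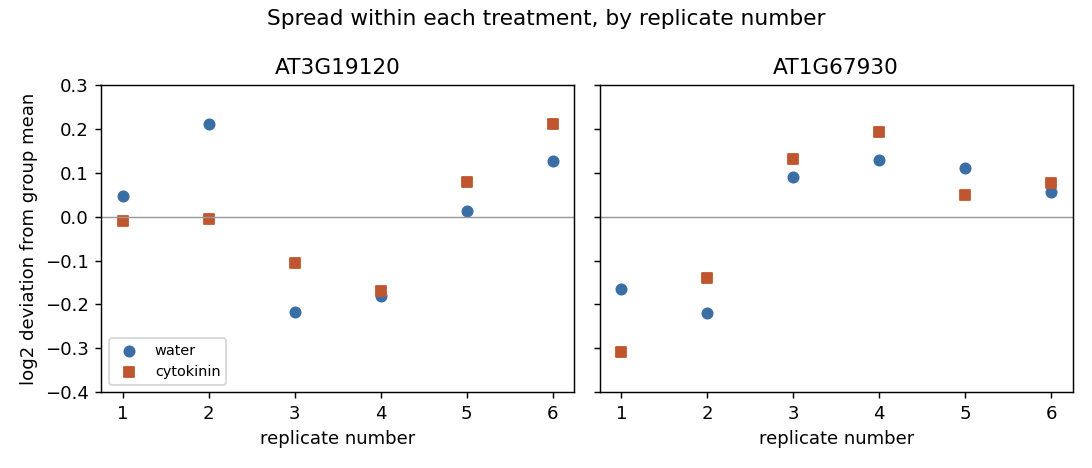
Log2 deviation of each array from the mean of its treatment, by replicate number, for AT3G19120 and AT1G67930 (circles water, squares cytokinin). For AT3G19120 numbers 3 and 4 lie below 0 in both treatments and for AT1G67930 numbers 1 and 2 do, from -0.14 to -0.31.

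The treatments were compared in limma over all 3091 features, with Benjamini-Hochberg adjustment at a threshold of 0.05. Without a block, 14 features (0.453%) fell, and 1 of the 2 genes, AT3G19120, is among them. With a block for replicate number, 161 features (5.21%) fell, and both are among them. The SD of AT1G67930 within a treatment was 0.171 on the log2 scale, and 52.5% of features had a smaller one. The SD of its differences within pairs was 0.0864, and 22.2% of features had a smaller one. For AT3G19120 these were 0.153 within a treatment and 0.122 within pairs, with 44.1% and 48.7% of features below. The first SD is of single values and the second of differences between 2 values, so their sizes are not to be set against each other. The choice of the genes also looked within pairs, which favours a small SD of the differences.

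The labels do not group the replicate numbers, so taking them 2 at a time is a choice made here. Averaged in this way, the log2 difference of AT3G19120 was -0.67 in numbers 1 and 2, -0.47 in 3 and 4 and -0.45 in 5 and 6. That of AT1G67930 was -0.40, -0.32 and -0.39. With 2 numbers left out of both groups, which leaves 4 arrays a group, AT3G19120 had a difference of -0.45 without 1 and 2, -0.57 without 3 and 4 and -0.57 without 5 and 6. Without a block it did not pass the threshold in the first and the last of these.

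The feature of AT3G19120 lies among feature numbers whose values drifted together in some pairs. The running median over 51 neighbouring features, taken as cytokinin minus water on the log2 scale, was -0.15 and -0.09 in pairs 1 and 2 and between -0.04 and 0.09 in the other pairs. With this trend removed, the differences of AT3G19120 in pairs 1 to 6 were -0.43, -0.65, -0.49, -0.60, -0.42 and -0.47. Their mean was -0.51, and pair 1 no longer lay among the farthest from 0. Around AT1G67930 the running median was between -0.07 and 0.09. With it removed the mean difference of AT1G67930 was -0.40 and pair 1 stood at -0.60, against -0.28 to -0.40 in the other pairs. The sources do not say how feature numbers relate to positions on the slide.

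Among the 613 features with 1 gene that were tested, AT3G19120 had the lowest log2 difference and AT1G67930 the 4th lowest. Among all 3091 they ranked 9th and 25th. These ranks describe how the genes were picked.

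**Figure D4:**
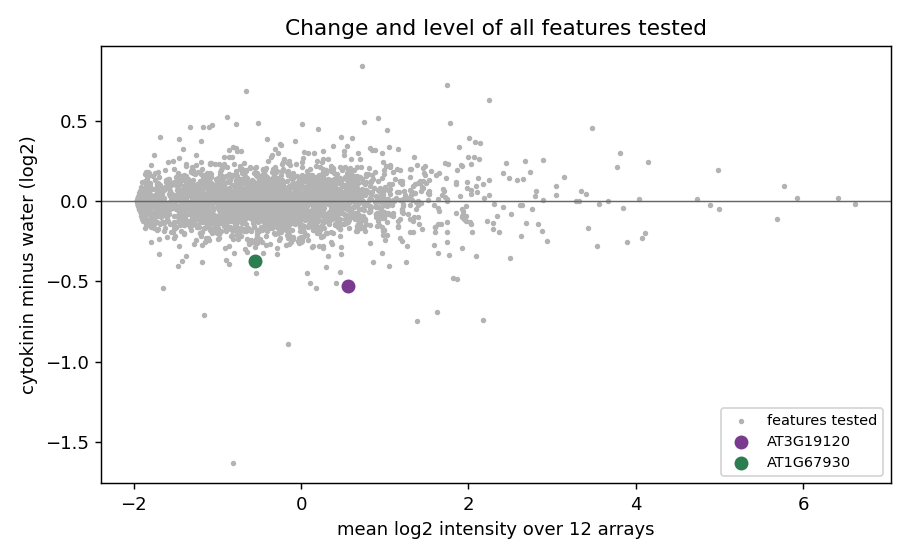
Log2 difference, cytokinin minus water, against the mean log2 intensity over 12 arrays for the 3091 features tested (grey points), with AT3G19120 and AT1G67930 marked. They lie at -0.53 and -0.37, the 9th and 25th lowest of all features tested, while the median of all features is 0.003.

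On the intensities as deposited, AT3G19120 averaged 1.81 ± 0.233 in water and 1.20 ± 0.11 in cytokinin, and AT1G67930 averaged 0.799 ± 0.0719 and 0.581 ± 0.0746 (SD, n = 6 per group). Their log2 differences were then -0.59 and -0.46, while the median over all features tested was -0.07 in place of 0.003. Median scaling gave -0.49 and -0.37. With a pseudocount of 0.5 in place of the floor, which makes changes of dim features appear smaller, they were -0.40 and -0.21.

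**Figure D5:**
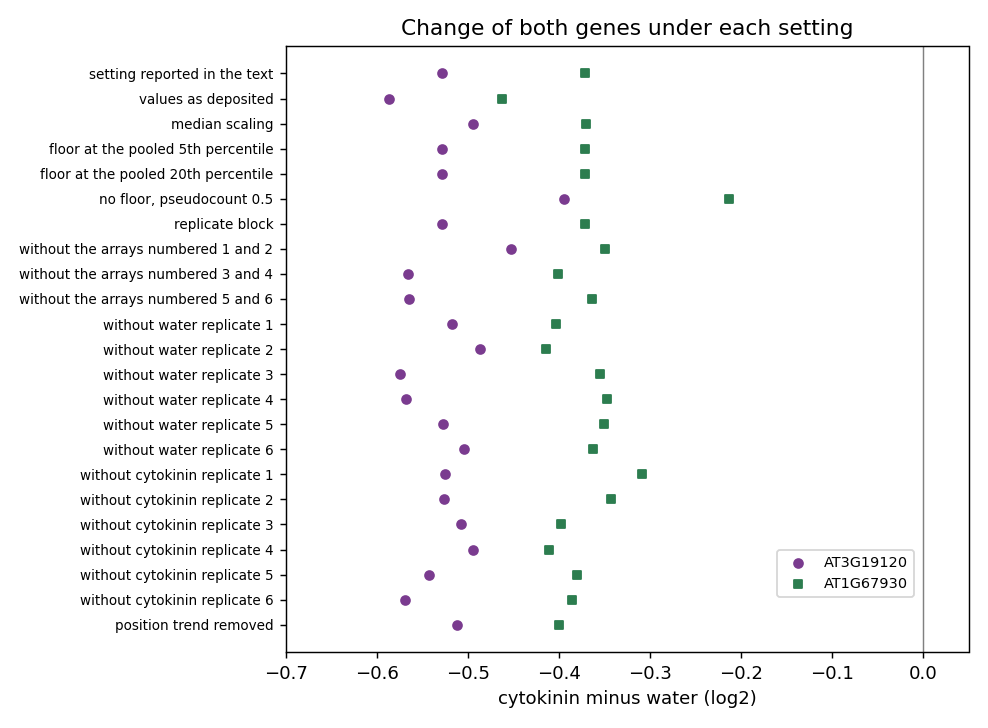
Log2 difference, cytokinin minus water, of AT3G19120 (circles) and AT1G67930 (squares) under the reported setting and 22 others. All values lie below 0, from -0.59 to -0.40 for AT3G19120 and from -0.46 to -0.21 for AT1G67930.

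The list of 8 COG complex loci was set by identifier, from general knowledge of these loci, since the RefSeq table used here gives no function for them. Besides AT1G67930, 2 of its loci have a feature of their own. AT4G24840 had normalized intensities of 0.286, 0.259, 0.27, 0.26, 0.221 and 0.212 on water arrays 1 to 6 and of 0.301, 0.288, 0.283, 0.281, 0.181 and 0.184 on cytokinin arrays 1 to 6. The groups overlapped and 4 of the 12 arrays, numbers 5 and 6 of both groups, lay at or below the floor of 0.258. Its log2 difference was 0.07 (SE 0.053, limma adjusted p = 0.867 without a block and 0.267 with the replicate block), a value whose sign the floor sets. In pairs 5 and 6, which the floor puts at 0, the normalized values before the floor were lower with cytokinin, by log2 differences of -0.29 and -0.21, and the mean over 6 pairs was then -0.01 (-0.11 on the values as deposited). AT1G73430 is listed at 0 on all 12 arrays and was not tested. Of the 2 COG loci tested, then, 0 fell without a block (against 0.453% of all features) and 1, AT1G67930 itself, with it (against 5.21%). The other 5 loci were not measured on a feature of their own.

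Outside that list, the only vesicle traffic genes found by symbol were PRA1.B6 and PRA1.B3, prenylated Rab acceptors, chosen after the names on the array were seen. PRA1.B6 averaged 1.15 ± 0.0867 in water and 1.08 ± 0.0833 in cytokinin (SD, n = 6 per group), a log2 difference of -0.09 that did not pass (limma adjusted p = 0.851, and 0.304 with the replicate block). PRA1.B3 was at or below the floor on 11 of 12 arrays, so its difference was not measurable. Of 122 genes whose RefSeq names hold a word of Golgi or vesicle traffic and 54 whose names hold one of transposons or nucleases, 0 have a feature of their own. The RefSeq names of AT3G19120 and AT1G67930 hold no such word, so neither is counted there. A search by name would likewise miss relatives of AT3G19120 that carry only a locus name, so it cannot tell whether any is on the array. The 39 genes of cytokinin perception, response and breakdown on the list used here were looked up by identifier, and 0 have a feature of their own. Those genes of the hormone could therefore not be set beside these values.

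The genes most like AT3G19120 over the 12 arrays, by Pearson's r of log2 values among 612 other features with 1 gene, were AT3G54680 (r = 0.868), AT5G59060 (0.818) and AT1G27610 (0.812). Their log2 differences were -0.18, -0.24 and -0.27, each nearer to 0 than that of AT3G19120. AT3G54680 averaged 1.05 ± 0.0629 in water and 0.928 ± 0.0342 in cytokinin (SD, n = 6 per group). None of these 3 passed without a block (limma adjusted p from 0.151 to 0.352), where 0.453% of all features fell. Each fell with the replicate block, where 5.21% of all features did. They were picked for likeness to a gene that was chosen for falling, so these calls support nothing.

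AT1G67930 was most like AT3G23940 (r = 0.909), TCP15 (0.902), a TCP-family transcription factor, and AT5G63390 (0.877). AT3G23940 averaged 1.69 ± 0.131 in water and 1.48 ± 0.157 in cytokinin, with a log2 difference of -0.19, and fell with the replicate block only. TCP15 averaged 0.642 ± 0.0509 and 0.515 ± 0.0474 and AT5G63390 averaged 1.41 ± 0.0937 and 1.11 ± 0.0964 (SD, n = 6 per group). TCP15 and AT5G63390 fell without a block as well, by 0.32 and 0.34 on the log2 scale. Of all features, 0.453% fell without a block and 5.21% with the replicate block. These genes too were picked for likeness to a gene that was chosen for falling, so their calls support nothing. The treatment difference itself enters these correlations, and arrays of the same number deviated together, so the correlations are given with no p. The labels do not say whether arrays of the same number were processed together.

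With the mean of each treatment removed, other genes came closest. AT3G19120 then went with AT4G37420 (r = 0.874), AT3G44810 (0.842) and AT1G49850 (0.832), whose log2 differences between treatments were 0.05, 0.13 and -0.14, none past the threshold in either fit. AT1G67930 went with AT2G19280 (0.877), AT3G23940 again (0.873) and AT3G18870 (0.865). AT3G18870 rose with the replicate block, by 0.17 on the log2 scale, while AT2G19280, at -0.10, passed in neither fit. Of these 6 genes, then, 2 passed between treatments with the replicate block, where 11.7% of all features rose or fell, and 0 without it, where 1.55% did.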

How the data were processed

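The authors deposited linear hybridization intensities for 3439 features on 12 arrays; their scaling and background correction are not given in the sources used here. Genes were named by GEO's platform annotation, with symbols updated from RefSeq (TAIR10.1, names only): 692 features have 1 gene, 870 several and 1877 are unnamed here, and RefSeq held 690 of the 692. No coordinates are printed because no build is named.

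Arrays were quantile-normalized, floored at 0.258, the 10th percentile of all positive values, and put on the log2 scale. Of the features, 348 never rose above the floor and were dropped, so 3091 were tested. Treatments were compared in limma 3.58.1 (R 4.3.3, two-sided, Benjamini-Hochberg over all features, threshold 0.05), without a block and with the replicate number as one. The script was tested on simulated data. Plots used matplotlib 3.10.9.

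Deviations of same-numbered arrays from their group means correlated at 0.696 to 0.839 over features. Among the arrays of the other treatment, 12 of 12 arrays correlated best with the one of their own number. Arrays of the same treatment were not compared in this way. The numbers were therefore treated as pairing the arrays. That rests on these values, since the labels give no pairing.

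The 2 genes and all lists were chosen with earlier results of these data known. The named genes are both members, the 3 most correlated genes by each of 2 measures, and list members with a feature of their own. The alternatives were other scalings, floors, blocks and subsets of arrays.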

Additional observations from a re-analysis of the deposited data

Results flagged for a closer look

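Among 32 groups of 6 values, from 16 named features, 1 was flagged because a single array stood far from the others: cytokinin array 3 of PRA1.B3, at a normalized intensity of 0.289. Its gap to the next value was 1 times the range of the group, because the other 5 arrays were all set to the floor. Chance flags about 1 in 20 groups. No group of AT3G19120 or AT1G67930 was flagged.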

How the results depend on the processing

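The log2 differences of AT3G19120 and AT1G67930 stayed below 0 in 22 of 22 other settings each and moved by less than their SD within a treatment (0.153 and 0.171), though with the pseudocount of 0.5 (-0.40 and -0.21) both moved by more than the SD of their pair differences, as AT1G67930 did on the values as deposited (-0.46). With single arrays left out the log2 differences ran from -0.57 to -0.49 and from -0.41 to -0.31. Of the 26 alternatives in which features were called, AT3G19120 passed the threshold in 24 and AT1G67930 in 5. Among the 12 of these with a single array left out, AT3G19120 passed in 12 and AT1G67930 in 0. The same contrast chose the genes, so none of this is support. The 48 features changed between treatments, 70.8% of them rises, became 361 with the replicate block, 478 with the position trend removed as well, 41 with the means of numbers 1 and 2, 3 and 4, and 5 and 6 and those sets as a block, 78 with median scaling and 76 with array weights. Leaving out 2 numbers in both groups gave 5 (1 and 2), 7 (3 and 4) and 21 (5 and 6), with fewer samples, and leaving out single arrays gave 32 to 39. Rises were 39.1% of calls on the values as deposited, 80.8% with median scaling, 55.4% with the replicate block and 47.3% with block and trend removal. Elsewhere the cause was not tested. The count of features differing by number ran from 1681 to 1889. The position trend, the set means and the values before the floor were chosen after seeing the data. For features near the floor, the floor alters differences and can set their sign, as for AT4G24840.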
